A study of Mus musculus with 6 samples.

Results

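Scx, Mkx and Tnmd are 3 genes that mark and build tendon. All probe sets whose only gene symbol in the platform annotation was one of these were taken: 4 probe sets, 2 for Scx (1428983_at and 1456291_x_at) and 1 each for Mkx (1437492_at) and Tnmd (1417979_at), of 34945 with a single symbol. They stand for 3 of the 18193 genes that the array reads in this way. Tongues from C57BL/6J mouse embryos at embryonic day 14.5 were compared, 3 of genotype Tgfbr2 fl/fl; Wnt1-Cre (mutants) and 3 of genotype Tgfbr2 fl/fl (controls), so both groups carried the floxed alleles and only the mutants carried the recombinase. Wnt1-Cre acts in the neural crest and its descendants, so the receptor gene was left intact in cells of other origin, among them the muscle fibres. The titles call the controls wildtype, the sample source is named once as tongue and once as its mesenchyme, and no label says whether the embryos were littermates.

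Scx encodes scleraxis, a bHLH transcription factor that appears in tendon progenitors and is kept on in tendon cells. Mkx encodes Mohawk, a TALE homeodomain factor needed for the build-up of tendon collagen. Tnmd encodes tenomodulin, a type II transmembrane glycoprotein of differentiated tendon cells, whose expression depends on scleraxis. TGF-beta signalling is a known inducer of Scx and is required for tendon formation in the limb and trunk. In the head, tendon cells descend from the neural crest, the lineage in which the receptor was inactivated here.

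In the mouse assembly GRCm38.p6, Scx lies on chromosome 15 from 76457411 to 76459468 and Tnmd on chromosome X from 133851008 to 133865577. The interval of Scx lies inside that of Bop1 (76452988 to 76477249), which encodes a factor of ribosome assembly. RefSeq promoter windows of this assembly, from 250 bases before to 50 after a gene's start, matched 1 of the 3 members, Tnmd. It is shown beside the window of Cnmd, the closest relative of Tnmd, which encodes the cartilage protein chondromodulin, because Cnmd passed the test between genotypes and Tnmd did not. The Tnmd window is chrX:133850758-133851057 on the plus strand and the Cnmd window is chr14:79662134-79662433 on the minus strand. Capitals mark the E-box CANNTG, the class of site that bHLH factors such as scleraxis bind, and the Smad box CAGAC, the class of site that the transcription factors of the TGF-beta pathway bind, both searched on both strands.
Tnmd: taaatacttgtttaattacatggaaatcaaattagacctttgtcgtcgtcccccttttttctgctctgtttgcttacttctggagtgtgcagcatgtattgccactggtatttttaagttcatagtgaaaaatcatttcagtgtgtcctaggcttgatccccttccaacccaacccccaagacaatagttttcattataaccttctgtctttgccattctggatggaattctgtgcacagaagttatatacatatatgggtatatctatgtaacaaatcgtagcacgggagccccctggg
Cnmd: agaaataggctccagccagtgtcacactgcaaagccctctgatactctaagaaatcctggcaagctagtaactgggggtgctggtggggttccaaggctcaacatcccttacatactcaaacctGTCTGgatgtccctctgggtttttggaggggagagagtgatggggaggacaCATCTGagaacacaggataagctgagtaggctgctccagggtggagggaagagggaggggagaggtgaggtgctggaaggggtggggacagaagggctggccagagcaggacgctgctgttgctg
Neither motif was found in the Tnmd window. The Cnmd window held 1 E-box, CATCTG, whose first base lay at -75 from the start, and 1 Smad box, read as GTCTG, at -126. Of 32817 windows of this length, 72.3% held the E-box and 49.6% the Smad box, and a match is a match of letters only.

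Expression values are log2 values after RMA, in which a step of 1 is a doubling. A gene was read by its brightest probe set, and a gene had to average at least 5.17, which set aside the dimmest 25% and left 13645 genes. All 3 members passed this limit, with means over the 6 arrays of 6.78 (Scx), 6.63 (Mkx) and 6.68 (Tnmd), and all 3 lay under the median gene mean of 7.38. They lay 1.46 to 1.61 above the limit. Mutant array 1 stood apart from the other arrays: on the first principal component, with 57.2% of the variance, it lay at -39.1, the other mutants at -6.91 and -2.87 and the controls between 9.29 and 20.04. Values without it are given beside the results it moved most. Tgfbr2 RNA itself was 11.16, 11.79 and 11.69 in mutant arrays 1 to 3 and 11.55, 11.82 and 11.80 in control arrays 1 to 3, so the groups overlapped (-0.18, adjusted p = 0.642; 0.01 without mutant array 1). The sources used here do not say whether its probes lie in the recombined part, so this does not check the genotypes.

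None of the 3 tendon regulators passed the test between mutants and controls, where limma called 2.14% of the tested genes at an adjusted p under 0.05. Scx had the clearest separation, with every mutant below every control, and its fitted level in the mutants was 0.80 of that in the controls. Mkx and Tnmd had overlapping groups. In this fit each member's 95% interval left out a change of 1.5-fold or more in either direction. For Scx this held narrowly, with a limit of 1.49-fold lower in the mutants. It does not extend to the other settings, in which Scx reached -0.40. These are bulk tissue values, so fewer tendon cells and less RNA per cell cannot be told apart.

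**Figure D1:**
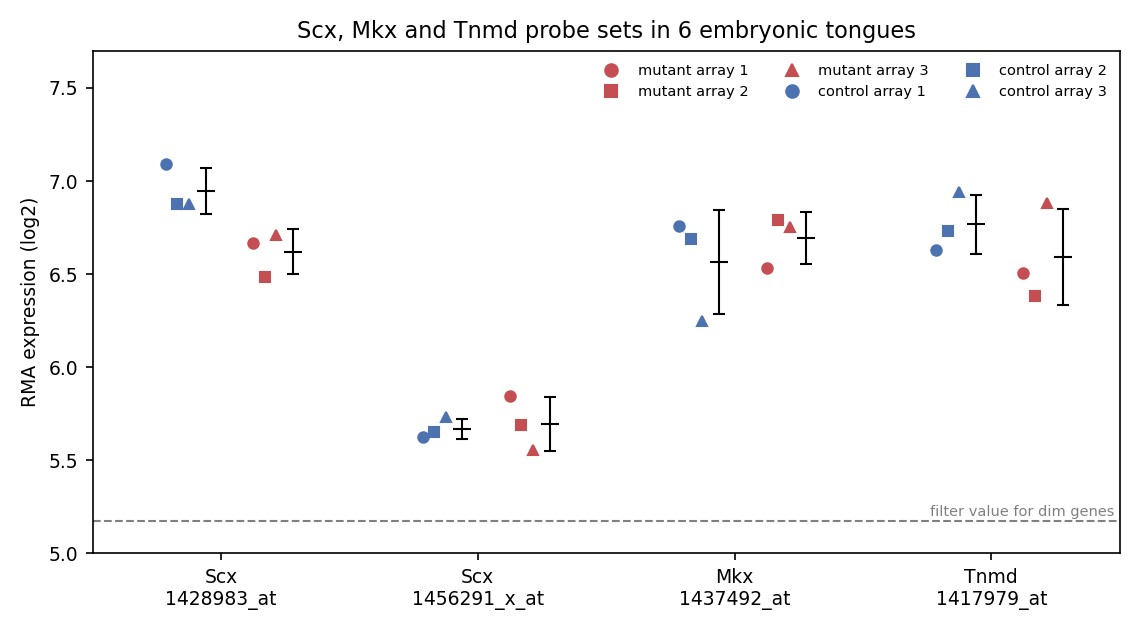
Log2 expression (vertical axis) of the 4 probe sets of Scx, Mkx and Tnmd (horizontal axis) in 3 control and 3 mutant tongues; each point is 1 array, the bar is the group mean and its whiskers the SD, and the dashed line is the value of 5.17 under which genes were not tested. The mutants lie below the controls on the brighter Scx probe set, and the groups overlap on the other 3.

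The brighter Scx probe set read 6.67, 6.48 and 6.71 in mutant arrays 1 to 3 and 7.09, 6.88 and 6.87 in control arrays 1 to 3. The lowest control was above the highest mutant, as in 11.5% of the tested genes, and mutant array 1 lay between the other mutants. The means were 6.62 ± 0.12 and 6.95 ± 0.12 (SD, n = 3 per genotype). The log2 difference was -0.33 (standard error 0.11, 95% interval -0.58 to -0.08), with an unadjusted p of 0.0171 and an adjusted p of 0.187 (limma). An unadjusted p under 0.05 was reached by 16.9% of the tested genes (7.46% lower in the mutants), and 16.2% differed by at least as much as Scx. An exact permutation test of Scx gave p = 0.1 (2-sided), the smallest that 3 against 3 arrays allow. Without mutant array 1 the difference was -0.35 (adjusted p = 0.127).

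The dimmer Scx probe set did not share this difference. It read 5.84, 5.69 and 5.55 in mutant arrays 1 to 3 and 5.62, 5.65 and 5.73 in control arrays 1 to 3. Here mutant array 1 was the highest of all and mutant array 3 the lowest. The difference was 0.03 (standard error 0.10, adjusted p = 0.933 over all single-gene probe sets, of which 1.12% passed), and -0.05 without mutant array 1. Its name carries the suffix that marks probes shared with other transcripts, and it lay 0.51 above the filter value. The mean of both probe sets gave -0.15 for Scx (adjusted p = 0.367). Bop1, named for its overlap with Scx after the values were seen, read 7.78, 8.10 and 8.05 in the mutants and 8.28, 8.26 and 8.26 in the controls (-0.29, adjusted p = 0.234). On this probe set the Bop1 mutants too lay below the controls. The other, dimmer Bop1 probe set gave 0.15 (means of 4.63 in the mutants and 4.48 in the controls, limma adjusted p = 0.654). Whether the Scx probe sets read Bop1 transcripts was not tested.

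Mkx, the homeodomain factor, lies on chromosome 18 from 6934966 to 7004779 in GRCm38.p6. It read 6.54, 6.79 and 6.76 in mutant arrays 1 to 3 and 6.76, 6.69 and 6.25 in control arrays 1 to 3. Control array 3 was the lowest of the 6, and the other arrays of both genotypes lay within the same range. The log2 difference was 0.13 (standard error 0.15, 95% interval -0.23 to 0.49, adjusted p = 0.703), and 51.1% of the tested genes differed by at least as much. Its direction turned without control array 3 (-0.03, adjusted p = 0.956).

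Tnmd, the differentiation marker, read 6.51, 6.38 and 6.88 in mutant arrays 1 to 3 and 6.63, 6.73 and 6.94 in control arrays 1 to 3. Array 3 was the highest of its genotype in both groups, and mutant array 3 lay above control arrays 1 and 2. The log2 difference was -0.18 (standard error 0.15, 95% interval -0.53 to 0.18, adjusted p = 0.590), and 38.7% of the tested genes differed by at least as much. It was -0.32 without mutant array 3 (adjusted p = 0.208) and -0.07 without mutant array 2 (adjusted p = 0.831). Because Tnmd lies on the X chromosome, it was also read by sex. Xist, the RNA of the inactive X, was at least 11.74 in mutant arrays 1 and 3 and control array 1 and at most 6.43 in the others. Tnmd spanned 6.51 to 6.88 in the former and 6.38 to 6.94 in the latter, so it did not separate with sex.

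Whether the members changed by unequal amounts was asked from the difference of their log2 values within each array, for 3 pairs. Mkx minus Scx was -0.13, 0.31 and 0.04 in mutant arrays 1 to 3 and -0.33, -0.19 and -0.63 in control arrays 1 to 3. All mutants lay above all controls for this pair, with a shift of 0.46 (exact permutation p = 0.1, 2-sided, the smallest possible, and 0.3 after Benjamini-Hochberg adjustment over the 3 pairs). Tnmd minus Scx shifted by 0.15 and Tnmd minus Mkx by -0.31, both with overlapping groups (exact p = 0.5 for each, 0.5 adjusted). With the mean of the Scx probe sets, Mkx minus Scx shifted by 0.28 (exact p = 0.3) and Tnmd minus Scx by -0.03 (exact p = 0.9).

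Across the 6 arrays the members did not follow each other closely. Pearson's r was 0.48 between Scx and Tnmd, -0.17 between Scx and Mkx, and -0.49 between Mkx and Tnmd. With the genotype means taken out, these became 0.20, 0.25 and -0.40. Ranked by r with Scx among 13644 other tested genes, Tnmd stood at 2520 and Mkx at 7673. These are descriptions over 6 arrays that share genotype and normalization.

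The genes most like Scx by this measure were Mettl4, Rdh10, Ddx18, Sephs2 and Six2, with r between 0.99 and 1.00 and between 0.95 and 0.99 within genotypes. Rdh10 encodes a retinol dehydrogenase of retinoic acid synthesis and gave a genotype difference of -0.37 (adjusted p = 0.142). Six2, a homeobox gene on the list of tendon factors below, read 7.22, 7.0 and 7.17 in mutant arrays 1 to 3 and 7.64, 7.40 and 7.35 in control arrays 1 to 3. Like Scx it was highest in control array 1 and lowest in mutant array 2, and it gave -0.33 (adjusted p = 0.200). Most opposite to Scx were Trpm4, Gbp6 and Clcn2, with r of -0.99 each. The genes most like Mkx were Gcgr, Dcp1b, Zcchc4, Zfp787 and Laptm4b (r from 0.96 to 0.98), and the most opposite were Relt, Mybpc3 and Pilrb1 (-0.98 to -0.96). The genes most like Tnmd were Mdga2, Clock, Wbp2, Erlec1 and Irf2bp2 (r from 0.97 to 0.98), and the most opposite were Ttc19, Dnajc30 and Ccdc69 (-0.99 each). None of these 24 genes passed the test between genotypes.

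Of the relatives of the members, Cnmd rose and Msc fell. The list held bHLH genes near Scx, Iroquois homeobox genes near Mkx, and Cnmd; 8 of its 12 genes were tested, and the other 6 did not pass, where 1.32% of all tested genes rose and 0.821% fell. Cnmd, the relative of Tnmd, read 7.23, 7.26 and 7.95 in mutant arrays 1 to 3 and 6.26, 5.45 and 5.89 in control arrays 1 to 3. Its controls lay close to the limit of 5.17, and against them it was 3.06-fold higher in the mutants (log2 difference 1.61, standard error 0.26, adjusted p = 0.0272). It did not pass when mutant array 2 (1.72, adjusted p = 0.0787), control array 2 (1.41, 0.119) or control array 3 (1.62, 0.141) was removed. Set against Tnmd within each array, a comparison added after the values were seen, Cnmd minus Tnmd was 0.72, 0.88 and 1.07 in mutant arrays 1 to 3 and -0.37, -1.28 and -1.05 in control arrays 1 to 3. The pair shifted by 1.79 with no overlap (exact permutation p = 0.1, the smallest possible, and 0.2 adjusted over 4 pairs). Of the promoter windows printed above, that of the gene that rose held both motifs and that of Tnmd held neither, which says nothing about what binds there.

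**Figure D2:**
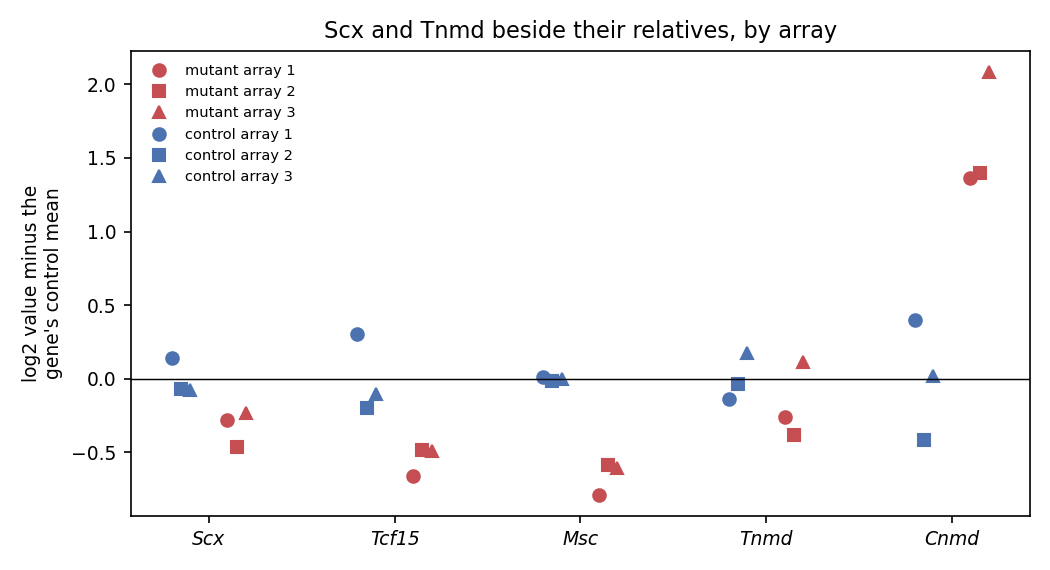
Log2 value minus the gene's control mean (vertical axis) for Scx, its bHLH relatives Tcf15 and Msc, Tnmd and its relative Cnmd (horizontal axis); each point is 1 array. The 3 mutants of Cnmd lie above all controls, with a fitted difference of 1.61, whereas the groups overlap for Tnmd; Msc and Scx mutants lie below their controls, by 0.66 and 0.33 on average.

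Cartilage markers are given beside Cnmd because it is a cartilage gene. Of the 8 markers listed, 6 were tested, and 1 of these rose, where 1.32% of all tested genes did. This was Col9a1, encoding a chain of the cartilage collagen type IX (0.87, adjusted p = 0.0283). It did not pass as the mean of its probe sets (0.57, 0.0672), with the sex covariate (0.0693), or when mutant array 2 or 3 or control array 2 or 3 was removed (0.0626 to 0.157). Matn1 and Hapln1 lay under the filter value, Acan gave -0.05 and Col2a1, the main cartilage collagen gene, gave -0.52 with all mutants below all controls (adjusted p = 0.340). Of the 6 tested, 4 were negative (median -0.05), as were 6357 of all 13645 tested genes. The log2 of the summed level of the list was 10.31 to 10.60 in the mutants and 10.15 to 10.33 in the controls. That sum includes Col9a1, which alone read 9.33 to 9.49 in the mutants and 8.40 to 8.87 in the controls. It is therefore not separate from the Col9a1 result. The part of these cells in the Cnmd result was not tested.

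On the Scx side, Msc, encoding a bHLH repressor known from muscle precursors, read 8.90, 9.10 and 9.08 in mutant arrays 1 to 3 and 9.70, 9.68 and 9.69 in control arrays 1 to 3. It fell by 0.66 (standard error 0.09, adjusted p = 0.0188), but it did not pass under the sex covariate (adjusted p = 0.0592), without mutant array 2 (0.0545) and without control array 1, 2 or 3 (0.0727, 0.121 and 0.127). Tcf15, encoding paraxis, the closest relative of scleraxis, read 7.83, 8.01 and 8.0 in the mutants and 8.80, 8.29 and 8.39 in the controls. Its groups did not overlap, but it did not pass (-0.54, adjusted p = 0.122). Its r with Scx over the 6 arrays was 0.88, and 0.56 within genotypes. The tested Iroquois genes Irx1, Irx2, Irx3 and Irx5 gave between -0.11 and 0.25 with overlapping groups. Tcf23, Tcf24, Irx4 and Irx6 lay under the filter value.

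Among genes of the signals and factors that induce tendon cells, Fgf6 and Meox1 fell and Egr2 rose. The list held 35 genes, of which 28 were tested; Gdf5, Fgf8 and Lmx1b lay under the filter value, and the others were not analysed here. Of the 28 tested, 2 fell and 1 rose, where 0.821% and 1.32% of all tested genes did, and the median difference was -0.04, against 0.02 over all tested genes. Fgf6, a muscle-derived growth factor gene, fell by 2.83 (7.11-fold, adjusted p = 0.00154). The homeobox gene Meox1, which acts in somites, was lower by a log2 difference of -0.78 (adjusted p = 0.0387). Egr2, a zinc finger gene that promotes tendon collagen, rose by 1.16 (adjusted p = 0.0272), from 5.44, 5.53 and 5.57 in control arrays 1 to 3 to 6.23, 6.86 and 6.95 in mutant arrays 1 to 3. Its other probe set gave 1.05. With the sex covariate Egr2 no longer passed (adjusted p = 0.0519), as without any 1 array other than mutant array 1 (0.0542 to 0.141). Meox1 did not pass with that covariate (0.0671) nor without mutant array 2 (0.125) or control array 1, 2 or 3 (0.118, 0.130 and 0.171). Fgf6 passed whichever of the 6 arrays was removed.

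Of the inducing ligands, Tgfb3 read 8.23, 8.83 and 8.90 in mutant arrays 1 to 3 and 8.96, 9.27 and 9.39 in control arrays 1 to 3. All mutants lay below all controls, and it gave -0.56 (adjusted p = 0.223, and 0.0472 with the replicate number as a block). Tgfb2 gave -0.06 (adjusted p = 0.934) and turned to 0.30 without mutant array 1. Egr1, a zinc finger gene related to Egr2, gave 0.66 with no overlap (adjusted p = 0.167) and 0.91 without mutant array 1 (adjusted p = 0.00261). Sox9, which Scx-expressing progenitors share at the junction with cartilage, gave -0.12 (adjusted p = 0.663), and 0.03 as the mean of its probe sets.

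**Figure D3:**
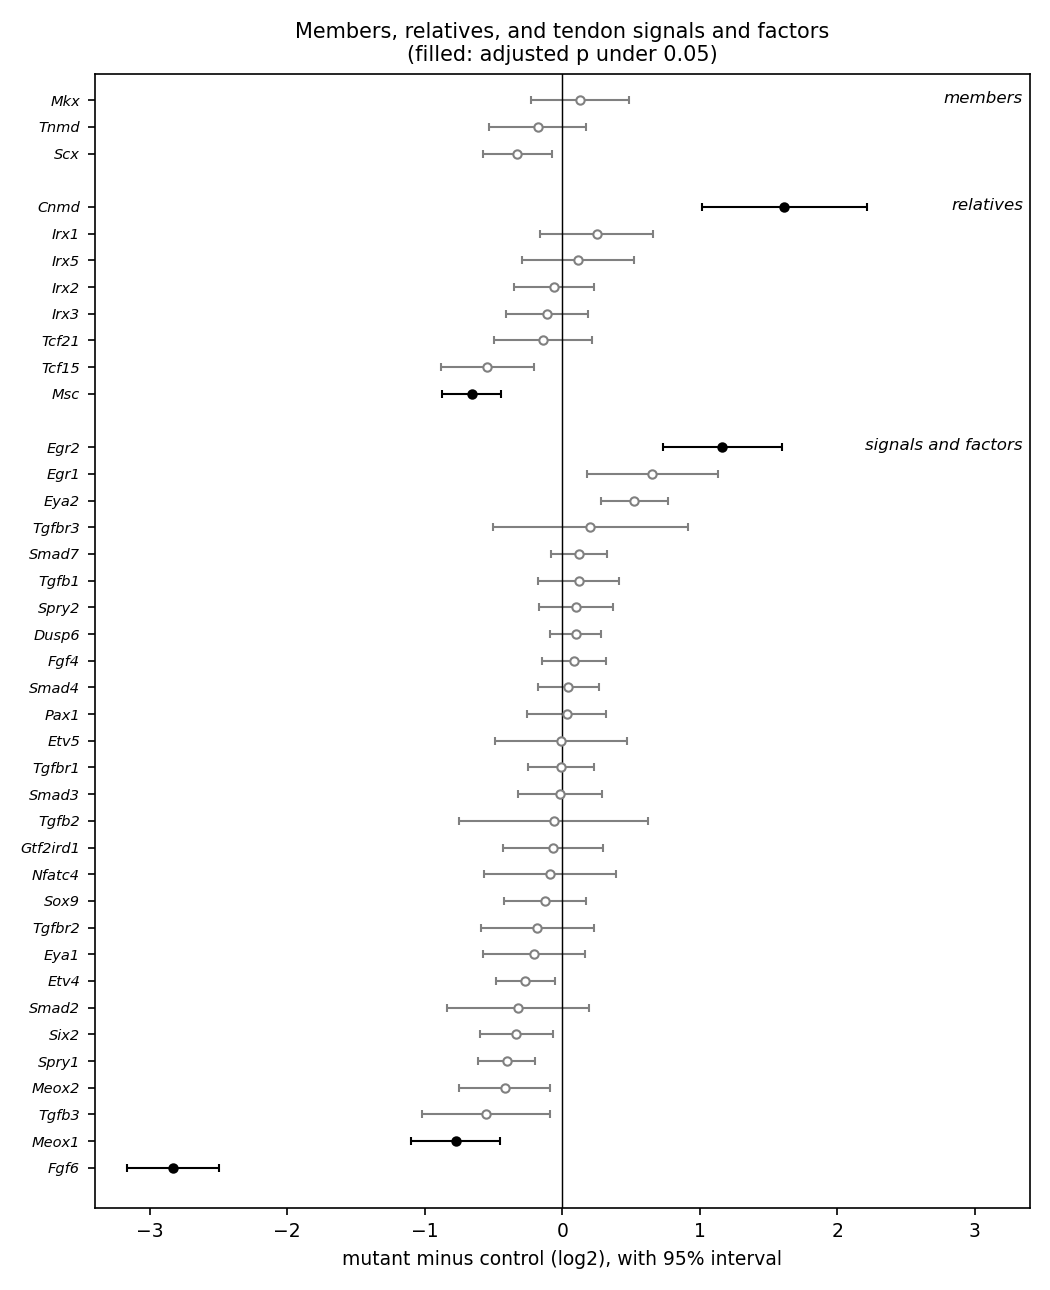
Fitted difference between mutants and controls in log2 (horizontal axis) with its 95% interval for the 3 members, their tested relatives, and the tested tendon signals and factors (vertical axis); filled points passed at an adjusted p under 0.05. The members lie between -0.33 and 0.13, and the filled points are Cnmd and Egr2 above 0 and Msc, Meox1 and Fgf6 below.

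Of the matrix genes of tendon, Aspn, Tnc, Thbs2, Fmod, Ogn and Kera fell and Lum and Dcn rose. These are 6 and 2 of 28 listed genes, all tested, where 0.821% of all tested genes fell and 1.32% rose. Of the 28, 22 were negative, as were 6357 of 13645 tested genes, with a median of -0.44 against 0.02 over all tested genes. Many of the members of this list were known from earlier results of these data, so it is not independent evidence of its direction. Aspn, encoding asporin, fell by 2.08 (4.23-fold, adjusted p = 0.0187), from 10.25, 11.27 and 11.26 in control arrays 1 to 3 to 8.86, 8.55 and 9.13 in mutant arrays 1 to 3. Tnc, encoding tenascin-C, a glycoprotein of tendon and muscle attachments, fell by 1.94 (3.83-fold, adjusted p = 0.0317), from 10.56, 10.999 and 11.08 to 8.14, 9.32 and 9.36 in the same order. Thbs2 (-1.39), Fmod (-0.95), Ogn (-0.81) and Kera (-0.75) encode a thrombospondin and small leucine-rich proteoglycans of the collagen fibril. Lum and Dcn, which encode proteoglycans of the same family, rose by 0.77 and 0.65. With the mean of each gene's probe sets, Fmod gave -0.42 (adjusted p = 0.0912), Tnc -1.29 (0.0572) and Dcn 0.41 (0.0563), and these 3 did not pass. In all 8 of these genes the genotypes did not overlap, which held for 25.1% of the tested genes. The 8 were picked by their calls on these same arrays, so this adds nothing to the calls.

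**Figure D4:**
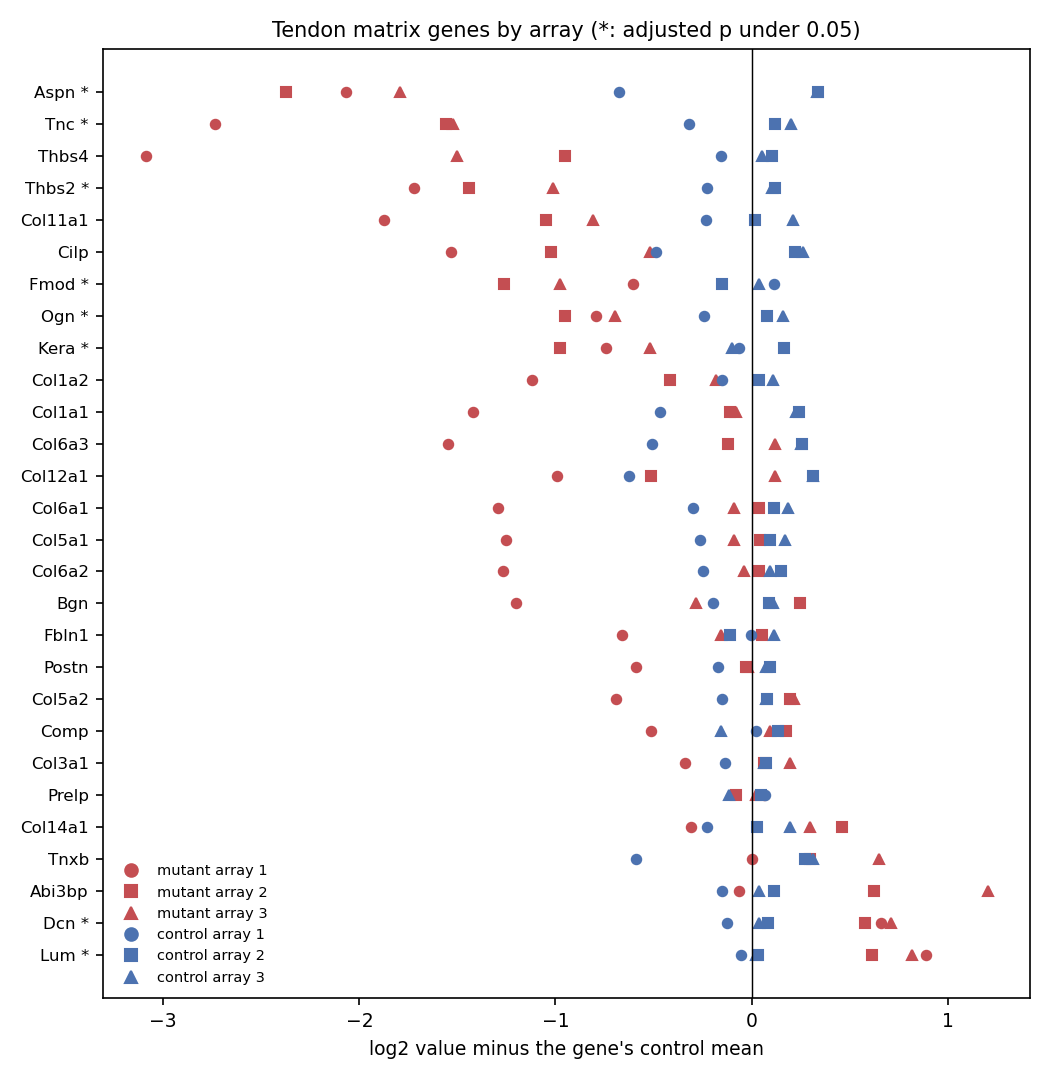
Log2 value minus the gene's control mean (horizontal axis) for the 28 tendon matrix genes (vertical axis), ordered by fitted difference; each point is 1 array and an asterisk marks an adjusted p under 0.05. For the 6 genes that fell all 3 mutants lie left of the controls, and for each collagen gene mutant array 1 lies furthest left.

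In every collagen gene of the list mutant array 1 was the lowest of the 6 arrays. In 2 of them, Col1a2 (-0.57, adjusted p = 0.270) and Col11a1 (-1.24, 0.0690), all mutants lay below all controls, as in 11.5% of the tested genes. Col1a1, the main tendon collagen gene, read 9.02, 10.33 and 10.36 in mutant arrays 1 to 3 and 9.97, 10.68 and 10.66 in control arrays 1 to 3 (-0.54, adjusted p = 0.508, and -0.10 with mutant array 1 removed). The list's median was -0.89 in mutant array 1, -0.06 in mutant array 2 and -0.09 in mutant array 3, relative to the control means. Without mutant array 1 the median difference was -0.03, and 11 genes passed, the same 8 among them. Removing mutant array 2 left 1 limma call (Lum), mutant array 3 left 5 and control array 1 left 3, and removing control array 2 or control array 3 left 0. The calls over all tested genes moved in the same way, from 292 with all arrays to 670 without mutant array 1. They numbered 88 and 242 without mutant arrays 2 and 3, and 142, 16 and 19 without control arrays 1, 2 and 3. With the replicate block Col11a1, Thbs4 and Cilp passed too (adjusted p = 0.0116, 0.0353 and 0.0119) and Kera did not (0.0529). Scx did not share the low value of mutant array 1.

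For the muscle-tendon junction, where tendon cells meet the fibre end, 13 genes were listed, 12 of them tested. Whether they read the junction apart from the rest of the muscle was not tested. limma called 0 of the 12. An unadjusted p under 0.05 was reached by 4 of them and by 16.9% of all tested genes. Of the 12, 10 were negative, as were 6357 of 13645 tested genes. Their median was -0.52 (-0.23 when mutant array 1 was removed), against 0.02 over all tested genes. The muscle markers given below had a median of -0.54 (-0.26 when mutant array 1 was removed). Col22a1, a collagen gene of that junction, read 6.74, 8.22 and 8.46 in mutant arrays 1 to 3 and 8.88, 9.38 and 9.50 in control arrays 1 to 3. Its groups did not overlap, and it gave -1.44 (adjusted p = 0.153, and 0.0228 with the replicate block). With mutant array 1 removed it gave -0.91 (adjusted p = 0.0436). Tln1, encoding talin 1, gave -0.52 (adjusted p = 0.0954). With array quality weights both passed (adjusted p = 0.0205 and 0.0168).

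Markers of other cell types were read beside these genes. All 10 muscle markers were negative (median -0.54, and -0.26 without mutant array 1), and the log2 of their summed level was 15.35 to 15.91 in the mutants and 15.96 to 16.25 in the controls. Of 6 epithelial markers 0 were negative, with a median of 0.585, and their summed level was 14.04 to 14.62 in the mutants and 13.70 to 13.78 in the controls. Of 7 genes listed as markers of stromal mesenchyme 4 were negative, Tcf4 among them (median -0.19, and 0.00 without mutant array 1). Their summed level was 13.03 to 13.86 in the mutants and 13.77 to 13.85 in the controls. Tcf4, the brightest gene in it, read 11.56 to 12.70 in the mutants and 12.53 to 12.82 in the controls. Whether Tcf4 is particular to stromal mesenchyme was not tested, so the sum is not a reading of that tissue alone. None of the muscle, epithelial and stromal markers passed on its own in limma. An unadjusted p under 0.05 was reached by 5, 5 and 1 of them, and by 16.9% of all tested genes. Of the 13645 tested genes 6357 were negative, with a median of 0.02. Scx and the tendon matrix genes that fell lay in the same direction as the muscle markers, and the part of tissue makeup in their values was not tested.

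**Figure D5:**
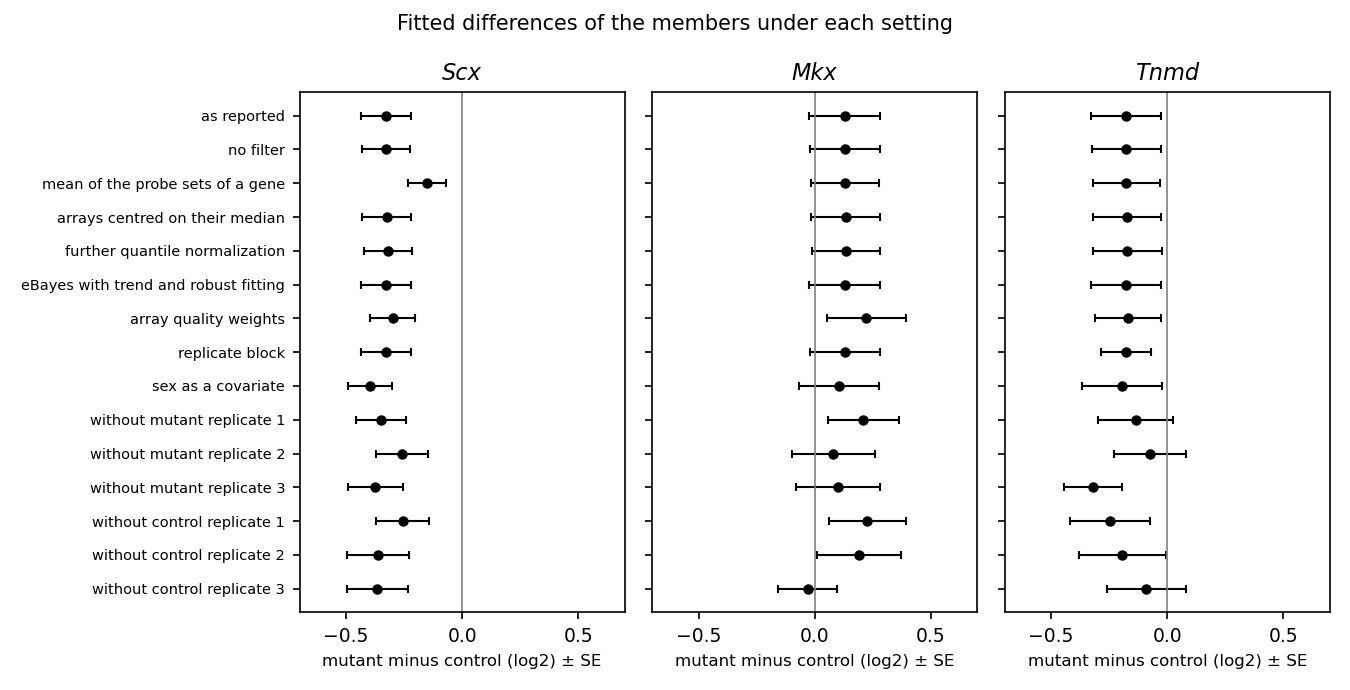
Fitted log2 difference between mutants and controls with its standard error (horizontal axis) for Scx, Mkx and Tnmd under each setting (vertical axis), from the values as reported to each array left out. Scx, read by its brighter probe set or by the mean of both, lies below 0 throughout, from -0.40 to -0.15. Tnmd lies from -0.32 to -0.07, and Mkx from -0.03 to 0.23.

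Across the 14 alternatives that kept the members, 0 gave a call for any of them with limma. Scx, read by its brighter probe set or by the mean of both, was negative in all 14. Its adjusted p lay between 0.105 and 0.448, with an unadjusted p under 0.05 in 11. The dimmer Scx probe set alone was positive in its main fit (0.03). Tnmd was negative in all 14, with an unadjusted p under 0.05 in 1, and Mkx was positive in 13, with 0 unadjusted p under 0.05.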

How the data were processed

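Total RNA of 6 tongues, 3 per genotype, was measured on Affymetrix arrays. The authors deposited log2 values per probe set, made with RMA (background correction, quantile normalization and probe summary), a step named without version in the submitters' processing notes. Of 45101 probe sets, 34945 had 1 gene symbol in the platform annotation, 932 had several and 9160 had none listed. The brightest of a gene's probe sets stood for it. Arrays have no read depth, so their number limits the precision: the median standard error was 0.117. Differences were fitted in R 4.3.3 with limma 3.58.1 (lmFit, eBayes, 2-sided, Benjamini-Hochberg over 13645 genes), tested on simulated data, and the difference of members with exact permutation tests. Figures were drawn with matplotlib 3.10.9.

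The members and lists were chosen with earlier results of these data known. Named were the members, Tgfbr2, up to 10 called genes of each list (otherwise the 2 with the smallest p), the 5 genes most like and 3 least like each member, and Tgfb2, Tgfb3, Egr1, Egr2, Six2, Col1a1, Tcf15, Cnmd and Sox9; others were named after their values were seen. The main fits and the exact permutation tests treated the arrays as unpaired. Deviations of same-numbered arrays correlated (r of 0.309, 0.105 and 0.206), each over the 0.1 required. The replicate block, an alternative setting, therefore read the replicate numbers as pairs. The basis is weak: mutant 2 with control 3 (0.196) and mutant 3 with control 2 (0.147) also passed 0.1, and the first of these exceeded the r of mutant 2 with control 2. No source tells whether the samples came from separate litters, and the p-values cover only the spread among them. Of the marker lists, bone (3 of 6 measured) and glia (3 of 5) gave 0 calls, and endothelium (6 of 6) and red cells (4 of 5) gave 0. Macrophages (6 of 6) gave 2, C1qa and C1qb, both higher. Of all tested genes, 1.32% were called higher and 0.821% lower. C1qa did not pass without mutant array 2 or control array 2 or 3 (adjusted p up to 0.0973), nor C1qb without mutant array 2 or any 1 control (up to 0.226). C1qb also did not pass with the lowest 50% of genes left out (0.0569), further quantile normalization (0.0565) or the sex covariate (0.112).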

Additional observations from a re-analysis of the deposited data

How the results depend on the processing

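The direction of Tnmd held under all alternatives that kept it. So did that of Scx as read by its brighter probe set or by the mean of both. No member passed under any alternative. With each array left out, the differences ranged from -0.37 to -0.26 for Scx, -0.32 to -0.07 for Tnmd and -0.029 to 0.226 for Mkx, which turned in 1 of them. The dimmer Scx probe set was positive in its main fit (0.026), kept that direction in 10 alternatives and turned in 2. It gave -0.027 with array quality weights and -0.048 to 0.096 with each array left out. Leaving out the lowest 50% of genes removed the members, so no value could be given. The replicate block, read as a pairing of arrays, gave Scx an adjusted p of 0.170, Mkx 0.698 and Tnmd 0.440; all genes called then numbered 490 against 292, and it changed the calls of Kera, Cilp, Col11a1, Thbs4, Col22a1 and Tgfb3 and of no other gene checked under it. The count of all called genes was 151 with the lowest 50% left out, 1034 with array quality weights and 135 with the sex covariate, and 16 to 670 with each array left out. Tendon matrix calls numbered 5 with probe set means, 4 with the sex covariate and 0 to 11 with each array left out. Calls among signals and factors were 6 with probe set means, 7 with array quality weights, 1 with the sex covariate, 1 with the lowest 50% left out and 1 to 6 with each array left out. Relatives gave 1 call with the sex covariate, 1 with the lowest 50% left out and 0 to 2 with each array left out. Junction genes gave 2 with array quality weights, 1 with the replicate block and 0 to 1 with each array left out. Tnmd minus Scx turned to -0.025 with probe set means. Sox9 gave 0.033 with probe set means and 0.0081 with array quality weights. Tgfb2 gave 0.22 with array quality weights and -0.35 to 0.30 with each array left out, and Tgfbr2 -0.30 to 0.014. Fewer genes or arrays enter the fits that leave some out; the cause of the other shifts was not tested. Signal over background was not measured here, so what it limits for the members was not tested. The Cnmd pair, and the alternative settings for the second Scx probe set, were added after the data were seen.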
